A study of Mus musculus with 7 samples.

Results

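The genes of 10 plasma proteins, several of them also made in fat, were examined by their RNA in inguinal white adipose tissue (groin fat under the skin). The 10 are the acute-phase proteins Alb, Orm1, Hp and Saa3, the apolipoproteins Apoc3, Apoe, Apoc1 and Apod, the hormone precursor Agt, and the protease inhibitor Serpina3n. They are 10 of the 55487 genes counted, and they were chosen by name with their imBAT and sham values in view, so their own differences between the groups are given as a description, without a test. All mice were NOD/ShiLtJ, a strain prone to autoimmune diabetes, whose blood glucose stood at 190 to 230 mg/dL, and each mouse was injected under the skin for 7 days. The 4 libraries called imBAT here, after their titles, came from mice given proteins above 100 kDa from buffer conditioned by brown adipocytes, at 1.5 mg/kg body weight. The 3 sham libraries came from mice given the buffer, KRBH, alone. Tissue was taken 2 to 8 weeks afterwards; the week of each library, the age of the mice and whether each library is a separate mouse are not stated in the labels.

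The liver makes most plasma protein and changes that output in inflammation, when cytokines such as IL-6 and IL-1 act with glucocorticoids through STAT3, NF-kB and C/EBP factors; proteins that increase in plasma are called positive and those that decrease, albumin among them, negative acute-phase proteins. Fat cells make several of the same proteins, haptoglobin, orosomucoid, serum amyloid A and angiotensinogen among them, and the C/EBP factors that drive their genes in liver also drive fat cell differentiation. Apolipoproteins sit on lipoprotein particles, where they hold the particle together, steer it to receptors, or switch on or block the lipases that unload it. Serpins are inhibitors that trap a protease after it has cut them.

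The libraries held 43360208 to 63650016 counts each in imBAT and 41025786 to 44983250 in sham, and values per library are CPM, counts relative to the library total after TMM scaling, a correction for library composition. Fat cell markers were detected in all 7 libraries, but the groups differed widely in cell type markers, so the libraries are not alike in make-up. The 11 white adipocyte markers (Adipoq, Lep, Plin1 and others) summed to 11586 to 28937 CPM in imBAT and 2154 to 4593 CPM in sham. All 11 were called higher. In sham, Cfd alone had 1162 to 2793 CPM of that sum and Lep had 0.155 to 2.25 CPM. The 11 T cell markers summed to 193 to 619 CPM in imBAT and 1182 to 1477 CPM in sham, the 9 B cell markers to 269 to 717 CPM in imBAT and 1745 to 2039 CPM in sham, and all 20 were called lower. Adipose progenitor markers summed to 2259 to 3624 CPM in imBAT and 575 to 744 CPM in sham, macrophage markers to 869 to 2505 CPM in imBAT and 1161 to 1303 CPM in sham, and mammary epithelium markers to 976 to 2065 CPM in imBAT and 138 to 530 CPM in sham. In bulk tissue, fewer cells of a type and less RNA per cell cannot be told apart, and the part of these marker shifts in the values that follow was not tested. A gene was called when edgeR's quasi-likelihood test gave a Benjamini-Hochberg adjusted p under 0.05 over all 26393 genes tested. By this rule 6407 genes were higher (24.3%) and 5084 lower (19.3%), with a median log2 fold change of -0.01 over all genes. Leaving out 1 library gave 3024 to 5097 genes called lower, with 3024 without sham replicate 2 and 3074 without sham replicate 3. With upper-quartile scaling the split was 4722 higher and 8180 lower and the median log2 fold change -0.25, so every log2 fold change depends on the scaling by about that much.

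All 10 genes passed the expression filter. By the call rule 6 of them were called, where 43.5% of all tested genes were: 5 were higher in imBAT (Alb, Orm1, Hp, Apod and Serpina3n; 24.3% of all tested genes) and 1 was lower (Apoc3; 19.3% of all tested genes). The other 4 were not called (Saa3, Apoe, Apoc1 and Agt). The same 5 had every imBAT library above every sham library, as 26.8% of all tested genes did, and Apoc3 had every imBAT library below, as 25.2% did. Since the genes were chosen on this contrast, nothing is read from these counts.

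**Figure D1:**
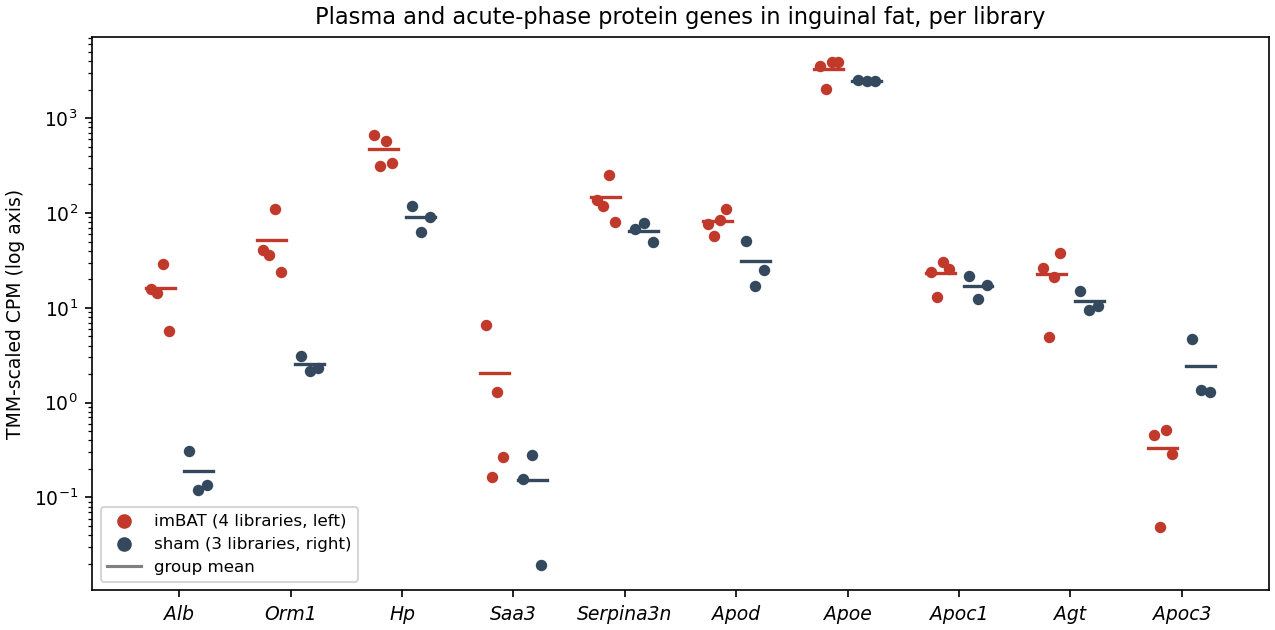
TMM-scaled CPM (log axis) of the 10 genes in each imBAT library (left) and each sham library (right); a point is 1 library and a line the group mean. Alb, Orm1, Hp, Apod and Serpina3n lie higher in all 4 imBAT libraries than in any sham library, Apoc3 lies lower, and Saa3, Apoe, Apoc1 and Agt overlap.

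Albumin (Alb, chr5:90460897-90476602, GRCm38), the main carrier protein of plasma and a classical product of the liver, had 15.9, 14.2, 29.2 and 5.63 CPM in imBAT replicates 1 to 4, against 0.309, 0.121 and 0.136 CPM in sham replicates 1 to 3. Every imBAT library was far above every sham library. The imBAT values rest on 862, 866, 1186 and 235 reads, and the sham values on 14, 6 and 7 reads. The mean was 16.2 ± 9.73 CPM in imBAT (SD, n = 4) and 0.189 ± 0.105 CPM in sham (SD, n = 3), an 86.0-fold higher level in imBAT, and the fitted log2 fold change was 6.43 ± 0.69 (SE). Leaving out each library in turn gave 5.93 to 6.95.

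Markers of liver cells differed in direction and in which library was highest. Of 17 hepatocyte markers, 10 passed the expression filter. Of these 10, 4 were called higher (40.0%, against 24.3% of all tested genes) and 6 were not called. The summed CPM of all 17 was 509 to 2045 in imBAT and 239 to 415 in sham. Most of it was Cyp2e1, at 227 to 399 CPM even in sham, so the sum follows this gene and not the markers as a set. The 4 called higher are given per library, in the order of the replicates. Fgb, a fibrinogen chain, had 2.65, 13.3, 15 and 8.65 CPM in imBAT and 2.72, 0.723 and 1.55 CPM in sham (edgeR adjusted p = 0.0128), and Fgg, another chain, 9.9, 21, 25.4 and 22.2 CPM in imBAT and 11.5, 2.37 and 4.87 CPM in sham (edgeR adjusted p = 0.0324). Cyp2e1, a cytochrome P450 enzyme, had 1295, 468, 851 and 2008 CPM in imBAT and 291, 227 and 399 CPM in sham (edgeR adjusted p = 0.011). Mup3, a major urinary protein gene, had 1.6, 0.605, 2.12 and 0.336 CPM in imBAT and 0 reads in each sham library (edgeR adjusted p = 0.00463). Alb and Mup3 were lowest in imBAT replicate 4, where Cyp2e1 was highest, and Fgb and Fgg were lowest in imBAT replicate 1. The clotting proteins F2 and Serpinc1 had every imBAT library below every sham library and were not called (edgeR adjusted p = 0.0779 and 0.0877). The 7 markers that missed the filter (Ttr, Ahsg, Gc, Cps1, Tat, Cyp3a11 and Cyp2c29) are low by that selection; together they had 271, 11, 6 and 22 reads in imBAT and 9, 13 and 15 reads in sham. Without imBAT replicate 1, which had most of these reads, the log2 fold change of Alb was 6.44. The part of RNA from liver cells in the Alb value was not tested. On the same chromosome Afp, the fetal relative of albumin, had 9, 14, 0 and 6 reads in imBAT and 7, 8 and 5 reads in sham.

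**Figure D2:**
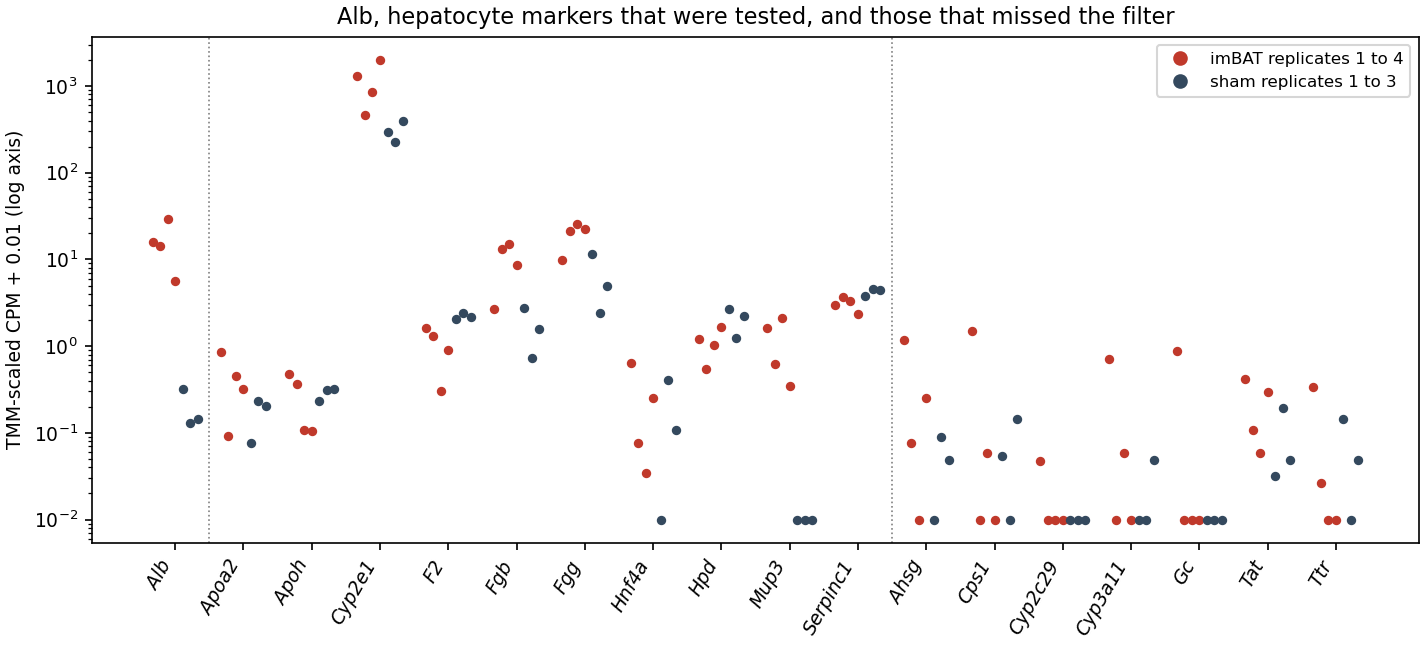
TMM-scaled CPM plus 0.01 (log axis, so that 0 can be drawn) of Alb, of the 10 hepatocyte markers that were tested and of the 7 that missed the expression filter, in each imBAT library (left of each gene) and each sham library (right); a point is 1 library. Mup3, Cyp2e1 and Alb lie higher in all 4 imBAT libraries, F2 and Serpinc1 lie lower, and the others overlap.

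Promoter windows of Alb and Saa3 are shown because C/EBP factors, which bind both genes' promoters, are shared by liver and fat cells. The windows are the 300 bases from RefSeq (GRCm38.p6), 250 before and 50 after the start site, at chr5:90460620-90460919 (plus strand) for Alb and chr7:46715627-46715926 (minus strand) for Saa3. Capitals mark matches to a C/EBP motif (TTGCNNAA, either strand), at bases 157 to 164 of the Alb window and bases 152 to 159 of the Saa3 window.
Alb: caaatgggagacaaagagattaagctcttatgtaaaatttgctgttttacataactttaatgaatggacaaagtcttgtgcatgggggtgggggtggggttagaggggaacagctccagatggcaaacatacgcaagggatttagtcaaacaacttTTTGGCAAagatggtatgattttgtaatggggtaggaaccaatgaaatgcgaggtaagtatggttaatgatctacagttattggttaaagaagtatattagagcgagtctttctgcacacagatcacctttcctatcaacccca
Saa3: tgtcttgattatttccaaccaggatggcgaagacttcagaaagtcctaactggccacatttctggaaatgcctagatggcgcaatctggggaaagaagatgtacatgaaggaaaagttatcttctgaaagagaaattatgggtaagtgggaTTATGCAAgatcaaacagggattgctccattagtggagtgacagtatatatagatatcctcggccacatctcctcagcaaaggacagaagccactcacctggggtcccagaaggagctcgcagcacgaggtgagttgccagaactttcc
A match is a description of these letters and not of binding: 10.8% of the 32851 promoter windows of the same length held the C/EBP motif. RefSeq windows were at hand for 6 of the 10 genes (Alb, Saa3, Apoe, Apod, Agt and Serpina3n). Beside these letters, the data give the levels of such factors, whose part in the Alb and Saa3 values was not tested. Cebpa, a C/EBP factor of mature fat cells and liver, stood at 688, 629, 1078 and 684 CPM in imBAT and 116, 77.3 and 130 CPM in sham (log2 fold change 2.84 ± 0.26, SE, edgeR adjusted p = 8.16e-04). Cebpb had 38.3 to 94.1 CPM in imBAT and 10.1 to 20.2 CPM in sham (log2 fold change 2.15, edgeR adjusted p = 0.00311). Cebpd had 53.1 to 122 CPM in imBAT and 30.4 to 56.5 CPM in sham, with overlapping groups, and was not called (edgeR adjusted p = 0.0718).

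Orm1 (orosomucoid 1, chr4:63344560-63348163), an acute-phase lipocalin that carries drugs and small hydrophobic molecules in plasma, had 41.1, 35.7, 109 and 24.0 CPM in the imBAT libraries and 3.12, 2.17 and 2.33 CPM in the sham libraries. The groups lay far apart, and imBAT replicate 3 was the highest, as for Alb. The mean was 52.4 ± 38.2 CPM in imBAT (SD, n = 4) and 2.54 ± 0.507 CPM in sham (SD, n = 3), 20.6-fold higher in imBAT, with a log2 fold change of 4.37 ± 0.56 (SE). Its copies within 17.9 kb gave other values. Orm2 averaged 8.85 CPM in imBAT and 18.3 CPM in sham and fell (log2 fold change -1.05 ± 0.16, SE; edgeR adjusted p = 0.00207), and Orm3 had 4, 2.22, 8.58 and 6.5 CPM in imBAT and 3.12, 3.57 and 3.92 CPM in sham and was not called (edgeR adjusted p = 0.275), except without imBAT replicate 2. The 3 genes are near-identical in places: 20.4% of the 50-base windows of the longest Orm1 coding transcript also occur in Orm2, so reads could be split between them, which makes these values less certain.

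Haptoglobin (Hp, chr8:109575128-109579172), which binds haemoglobin set free from red cells, had 666, 313, 575 and 340 CPM in imBAT and 118, 62.9 and 91.4 CPM in sham. The lowest imBAT library was above the highest sham library. The mean was 473 ± 174 CPM in imBAT (SD, n = 4) and 90.8 ± 27.6 CPM in sham (SD, n = 3), 5.21-fold higher in imBAT, with a log2 fold change of 2.38 ± 0.33 (SE). Cd163, the macrophage receptor that takes up haptoglobin with its haemoglobin, was also higher in imBAT, at 60.8 to 151 CPM against 10.5 to 22.1 CPM in sham (log2 fold change 2.85; edgeR adjusted p = 0.00145).

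Saa3 (chr7:46711998-46715700), the serum amyloid A gene that mice express mainly outside the liver, in fat cells and macrophages, had 353, 10, 52 and 11 reads in imBAT, or 6.51, 0.164, 1.28 and 0.264 CPM, and 7, 14 and 1 reads in sham, or 0.155, 0.281 and 0.0194 CPM. The groups overlapped, and imBAT replicate 1 alone carried most of the imBAT reads. The mean was 2.05 ± 3.01 CPM in imBAT (SD, n = 4) and 0.152 ± 0.131 CPM in sham (SD, n = 3), and the log2 fold change of 3.75 ± 1.41 (SE) became 1.87 without imBAT replicate 1; Saa3 was called higher without imBAT replicate 2 or 4 and under DESeq2. That library also had most reads of the 7 hepatocyte markers that missed the filter, and the part of this in the Saa3 value was not tested. The liver forms of the same cluster were near 0: Saa1 had 7, 2, 5 and 4 reads in imBAT and 0 in each sham library, and Saa2 had 2, 2, 2 and 0 reads in imBAT and 4, 4 and 10 in sham.

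Among the other acute-phase proteins, 12 of 23 tested genes rose (52.2%, against 24.3% of all genes), 3 fell (13.0%, against 19.3%) and 8 were not called. The median log2 fold change was 1.02 against -0.01 over all genes. Steap4, an inflammation-induced metalloreductase of fat cells, rose to 316, 227, 546 and 214 CPM in imBAT, against 40.4, 33.9 and 40.6 CPM in sham (log2 fold change 3.09 ± 0.35, SE; edgeR adjusted p = 9.92e-04). Lbp, which hands bacterial lipopolysaccharide to Cd14, rose by 2.15 ± 0.24 on the log2 scale (SE; edgeR adjusted p = 9.96e-04). Lcn2, an iron-scavenging lipocalin, rose by 2.43 (edgeR adjusted p = 0.00286) and Cp, the copper-carrying ferroxidase ceruloplasmin, by 1.35 on the same scale (edgeR adjusted p = 0.00258). The 3 genes that fell were Orm2, Itih3, a hyaluronan-binding protein (log2 fold change -1.71 ± 0.34, SE, edgeR adjusted p = 0.00487), and Hamp, the iron hormone hepcidin (log2 fold change -2.14 ± 0.35, SE, edgeR adjusted p = 0.00255). Levels of the last 2 were low. Itih3 had 0.935 to 2.71 CPM in imBAT and 5.2 to 7.45 CPM in sham, and Hamp 0.36 to 0.811 CPM in imBAT and 1.77 to 2.69 CPM in sham. The complement component C4b was higher (log2 fold change 1.29; edgeR adjusted p = 0.00422), and C3 had 1748 to 3630 CPM in imBAT and 2318 to 2549 CPM in sham and was not called (edgeR adjusted p = 0.259).

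Of the genes that induce acute-phase proteins, 9 of 26 tested rose (34.6%, against 24.3% of all genes), 6 fell (23.1%, against 19.3%) and 11 were not called, with a median log2 fold change of 0.18. With upper-quartile scaling the balance turned round, to 6 higher and 9 lower. Beside Cebpa, the smallest p-values belonged to Rxra, the partner of many nuclear receptors (log2 fold change 1.24; edgeR adjusted p = 0.00105), Tnfrsf1a, a TNF receptor (1.06; edgeR adjusted p = 0.0011), and Nr1h3, the oxysterol receptor LXR alpha (1.43; edgeR adjusted p = 0.00114). The cytokine genes Tnf (log2 fold change -1.45; edgeR adjusted p = 0.00367) and Osm (-1.47; edgeR adjusted p = 0.00473) fell. Il6 had 8, 0, 4 and 8 reads in imBAT and 4, 7 and 7 reads in sham, too few to be tested, and Stat3 had 310 to 341 CPM in imBAT and 283 to 324 CPM in sham and was not called (edgeR adjusted p = 0.455).

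The apolipoproteins did not share a direction. Apoc3 (chr9:46232933-46235636), which inhibits lipoprotein lipase and the clearance of triglyceride-rich particles, had 25, 3, 21 and 12 reads in imBAT, or 0.461, 0.0491, 0.516 and 0.288 CPM, and 211, 67 and 66 reads in sham, or 4.66, 1.35 and 1.28 CPM. Every imBAT library was below every sham library, and sham replicate 1 was far above the other sham libraries. The mean was 0.329 ± 0.21 CPM in imBAT (SD, n = 4) and 2.43 ± 1.93 CPM in sham (SD, n = 3), 7.4-fold lower in imBAT, with a log2 fold change of -2.90 ± 0.70 (SE) that was -2.01 without sham replicate 1. Its neighbours within 40.1 kb were also low: Apoa1, the main protein of HDL, had 24, 2, 6 and 4 reads in imBAT and 30, 21 and 3 in sham and was not called (log2 fold change -1.05; edgeR adjusted p = 0.37). Lpl, the lipase that Apoc3 inhibits, stood at 2192 to 5509 CPM in imBAT and 287 to 575 CPM in sham (log2 fold change 2.98; edgeR adjusted p = 0.00127).

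Apoe (chr7:19696109-19699188), the ligand that brings lipoprotein remnants to receptors of the LDL receptor family and a product of macrophages as well as fat cells, had 3532, 2031, 3872 and 3919 CPM in imBAT and 2544, 2445 and 2491 CPM in sham. The groups overlapped, because imBAT replicate 2 was below all sham libraries while the other 3 imBAT libraries were above them. The mean was 3339 ± 888 CPM in imBAT (SD, n = 4) and 2494 ± 50 CPM in sham (SD, n = 3), with a log2 fold change of 0.42 ± 0.22 (SE). Of 10 macrophage markers 7 were called higher (70.0%, against 24.3% of all tested genes), and their part in the Apoe value was not tested. Apoc1 (chr7:19689481-19692660), a small exchangeable apolipoprotein encoded next to Apoe, had 23.9, 13.1, 30.4 and 25.7 CPM in imBAT and 21.4, 12.3 and 17.5 CPM in sham, again with overlapping groups. Its mean was 23.3 ± 7.32 CPM in imBAT (SD, n = 4) and 17.1 ± 4.55 CPM in sham (SD, n = 3), with a log2 fold change of 0.45 ± 0.29 (SE). Without imBAT replicate 2, and with the title number as a replicate block, both Apoe and Apoc1 were called higher. Only imBAT replicate 2 has title number 22, so the block also takes it out of the group comparison. These settings are therefore not independent. Further along the same cluster, Apoc2, the activator of lipoprotein lipase, had 3 reads in imBAT replicate 2 and 0 in every other library.

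Apod (chr16:31296192-31314808), a lipocalin of fibroblasts and glia that is unrelated in sequence to the other apolipoproteins, had 76.9, 57.3, 84.0 and 109 CPM in imBAT and 50.9, 16.8 and 25.1 CPM in sham. The groups did not overlap, but sham replicate 1 came close to imBAT replicate 2. The mean was 81.8 ± 21.4 CPM in imBAT (SD, n = 4) and 30.9 ± 17.8 CPM in sham (SD, n = 3), 2.65-fold higher in imBAT, with a log2 fold change of 1.40 ± 0.37 (SE). The call was lost without imBAT replicate 3, without sham replicate 3 and without an expression filter. Markers of 2 cell types known to express Apod were measured beside it. Of 8 adipose progenitor markers 7 were called higher (87.5%, against 24.3% of all tested genes). The 6 Schwann cell markers summed to 239 to 354 CPM in imBAT and 162 to 284 CPM in sham, with 1 called higher (16.7%).

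The other apolipoproteins and their enzymes went both ways: of 12 tested, 2 rose and 2 fell (16.7% each, against 24.3% and 19.3% of all genes) and 8 were not called, with a median log2 fold change of -0.04. Apob, the structural protein of LDL, rose by 2.88 ± 0.59 on the log2 scale (SE; edgeR adjusted p = 0.00586), at 0.863 to 3.82 CPM in imBAT and 0.201 to 0.53 CPM in sham. Pltp, which transfers phospholipid between particles, rose by 1.99 ± 0.34 (SE; edgeR adjusted p = 0.00326). The 2 that fell were Clu, the secreted chaperone clusterin (log2 fold change -1.23 ± 0.23, SE; edgeR adjusted p = 0.00414), and Lipg, an endothelial lipase (-1.04 ± 0.15, SE; edgeR adjusted p = 0.00192). Of receptors and partners of the plasma proteins, 13 of 20 tested genes rose (65.0%), 4 fell and 3 were not called, with a median log2 fold change of 1.13. The smallest p-values belonged to the lipoprotein receptor Vldlr (log2 fold change 2.18 ± 0.21, SE; edgeR adjusted p = 8.16e-04), the HDL receptor Scarb1 (1.15 ± 0.13, SE; edgeR adjusted p = 0.00102), Bsg (1.37 ± 0.16, SE; edgeR adjusted p = 0.00105) and the Apoe receptor Lrp1 (1.90 ± 0.23, SE; edgeR adjusted p = 0.00108). Cubn and Lrp2, which take up filtered albumin in the kidney, the Apoe receptor Lrp8 and the sterol exporter Abcg1 fell, by 1.49, 1.08, 1.24 and 1.08 on the log2 scale (edgeR adjusted p = 0.00432, 0.0153, 0.00496 and 0.0101).

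**Figure D3:**
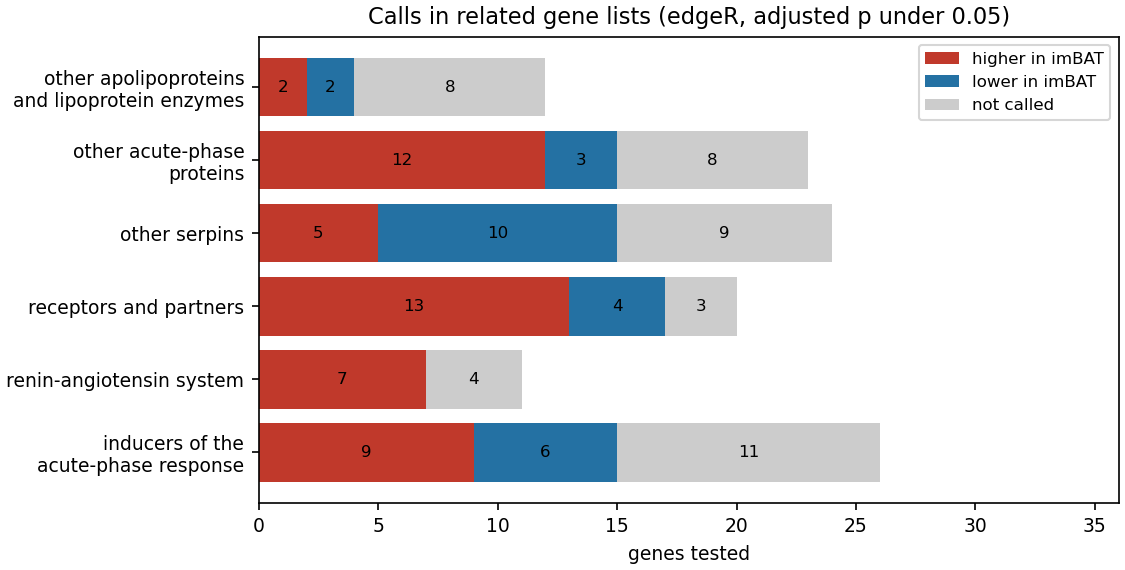
Number of tested genes called higher, called lower and not called in each gene list around the 10 genes (edgeR, adjusted p under 0.05). Of the renin-angiotensin genes 7 of 11 were higher, and the other serpins had 5 higher and 10 lower. Over all tested genes 24.3% were higher and 19.3% lower.

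Angiotensinogen (Agt, chr8:124556534-124569706), the precursor that renin cuts to release angiotensin, had 26.5, 4.94, 21.3 and 37.5 CPM in imBAT and 15.1, 9.42 and 10.5 CPM in sham. Of the imBAT libraries 3 were above all sham libraries and imBAT replicate 2 was below them. The mean was 22.6 ± 13.5 CPM in imBAT (SD, n = 4) and 11.7 ± 3.01 CPM in sham (SD, n = 3), with a log2 fold change of 0.95 ± 0.55 (SE). Without imBAT replicate 2 it was 1.29 and Agt was called higher. It was also called with the title number as a replicate block, which likewise takes imBAT replicate 2 out of the comparison.

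Around Agt, 7 of 11 tested genes of the renin-angiotensin system rose (63.6%, against 24.3% of all genes) and 4 were not called. Of those 4, 1 was lower with upper-quartile scaling. The median log2 fold change of the list was 1.44. The genes that rose were the receptor Agtr1a (35.8, 26.7, 25.8 and 32.3 CPM in imBAT, against 11.5, 6.83 and 7.86 CPM in sham; log2 fold change 1.79 ± 0.21, SE; edgeR adjusted p = 0.00104), the mast cell chymases Mcpt4 (2.30 ± 0.29, SE; edgeR adjusted p = 0.00126) and Cma1 (2.54 ± 0.35, SE; edgeR adjusted p = 0.00155), and the peptidases Mme (1.58 ± 0.24, SE; edgeR adjusted p = 0.00218), Ace, Enpep and Anpep. Ace, which makes angiotensin II, had 104 to 225 CPM in imBAT and 54 to 82.8 CPM in sham (log2 fold change 1.44; edgeR adjusted p = 0.00426). The renin gene Ren1 had 34, 4, 10 and 0 reads in imBAT and 4, 0 and 0 in sham, too few to be tested.

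Serpina3n (chr12:104406729-104414329), a secreted inhibitor related to human alpha-1-antichymotrypsin that blocks granzyme B in mice, had 138, 119, 250 and 79.6 CPM in imBAT and 68.3, 78.5 and 49.2 CPM in sham. The groups did not overlap, but imBAT replicate 4 and sham replicate 2 were nearly equal. The mean was 147 ± 73.1 CPM in imBAT (SD, n = 4) and 65.4 ± 14.9 CPM in sham (SD, n = 3), 2.24-fold higher in imBAT, with a log2 fold change of 1.17 ± 0.36 (SE). The call was lost without imBAT replicate 1, without each sham library, with upper-quartile scaling, without an expression filter and with the title number as a replicate block. Of the windows of 50 bases in its longest coding transcript, 6.9% occur in other genes, Serpina3g and Serpina3c among them. Gzmb, which encodes granzyme B, had 1.51 to 2.98 CPM in imBAT and 0.818 to 0.932 CPM in sham (log2 fold change 1.17; edgeR adjusted p = 0.0144).

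Serpina3n lies in a cluster of serpin genes on chromosome 12. Examined here were 18 genes within 775 kb, which are not every serpin gene of that stretch, and they differed in direction. Of the 17 that were tested, the only other called higher was Serpina3c. It had 62.1, 34, 79.8 and 48.3 CPM in imBAT and 7.69, 6.99 and 8.48 CPM in sham (log2 fold change 2.86 ± 0.28, SE, edgeR adjusted p = 8.16e-04). The 10 that fell were Serpina10 (log2 fold change -1.96 ± 0.29, SE; edgeR adjusted p = 0.00185), the 5 alpha-1-antitrypsin genes Serpina1a to Serpina1e, at -1.55 to -1.87, and Serpina3f (-1.38), Serpina3g (-1.32), Serpina3h (-1.03) and Serpina3i (edgeR adjusted p = 0.012). Serpina3b, Serpina3j, Serpina3k, Serpina3m and Serpina12 were not called. Serpina3h was no longer called by voom, nor Serpina3i without sham replicate 2, and Serpina3j was called higher without imBAT replicate 4. Where copies share sequence, reads could be split between them. Outside the cluster, Serpinf1, the secreted factor PEDF, rose by 2.72 ± 0.25 (SE; edgeR adjusted p = 8.16e-04) and Serpine2 by 1.25 ± 0.16 (SE; edgeR adjusted p = 0.00135) on the log2 scale. Over all other serpins tested, 5 of 24 rose (20.8%, against 24.3% of all genes), 10 fell (41.7%, against 19.3%) and 9 were not called. Their median log2 fold change was -0.45.

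**Figure D4:**
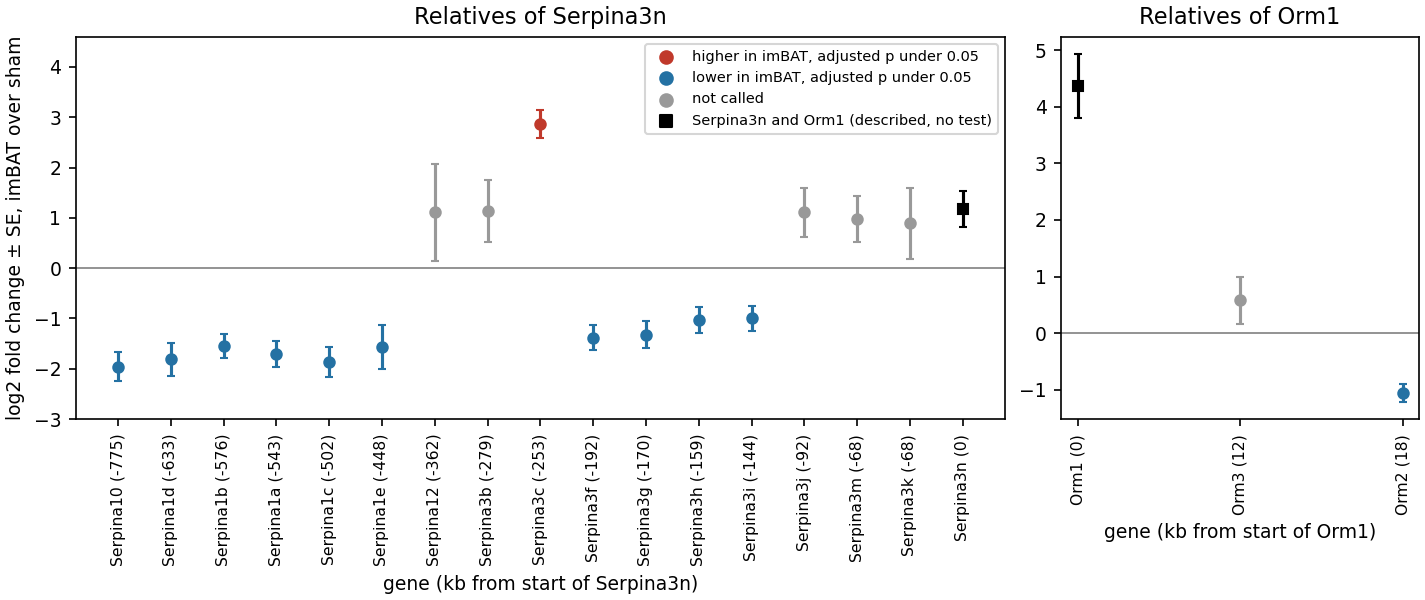
Fitted log2 fold change with its SE (imBAT over sham) of the tested genes around Serpina3n (left) and Orm1 (right), in chromosome order, with the distance of each start from that gene in kb. The genes drawn are those examined, not every gene of the stretch. Squares mark Serpina3n (1.17) and Orm1 (4.37), which carry no test. Serpina3c (2.86) is the only other gene called higher among those drawn on the left, and Orm2 (-1.05) lies below 0.

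The promoter windows of Serpina3n and Serpina3c are shown because both paralogs had every imBAT library above every sham library. They are the 300 bases from RefSeq (GRCm38.p6) at chr12:104406458-104406757 (plus strand) and chr12:104153823-104154122 (minus strand), and 275 of 306 aligned positions (89.9%) were identical, against 51.2% for Serpina3n and Alb. Capitals mark an NF-kB motif (GGG, any 2 bases, then TTTCC, either strand) at bases 80 to 89 of the Serpina3n window and a TATA motif (TATAAA, either strand) at bases 119 to 124 of the Serpina3c window.
Serpina3n: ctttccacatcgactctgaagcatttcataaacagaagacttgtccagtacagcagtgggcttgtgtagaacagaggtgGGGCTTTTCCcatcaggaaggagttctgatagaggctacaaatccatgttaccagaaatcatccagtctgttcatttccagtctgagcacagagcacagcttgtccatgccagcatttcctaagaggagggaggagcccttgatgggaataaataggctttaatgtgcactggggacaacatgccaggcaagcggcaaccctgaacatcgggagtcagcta
Serpina3c: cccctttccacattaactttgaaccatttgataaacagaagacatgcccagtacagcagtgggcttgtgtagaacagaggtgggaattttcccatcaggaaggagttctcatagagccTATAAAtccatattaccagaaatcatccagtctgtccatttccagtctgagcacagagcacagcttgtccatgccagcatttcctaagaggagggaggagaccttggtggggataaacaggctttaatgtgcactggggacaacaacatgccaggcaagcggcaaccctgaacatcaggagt
Among all 32851 windows, 1.63% held the NF-kB motif and 13.6% the TATA motif. Each of these motifs was found in 1 of the pair of windows, and no match says only that these letters are not in the other. At both marked places the other window differs by only a few letters, so the contrast depends on the exact pattern used. The TATA match of Serpina3c lies at offset -132 from the start site.

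**Figure D5:**
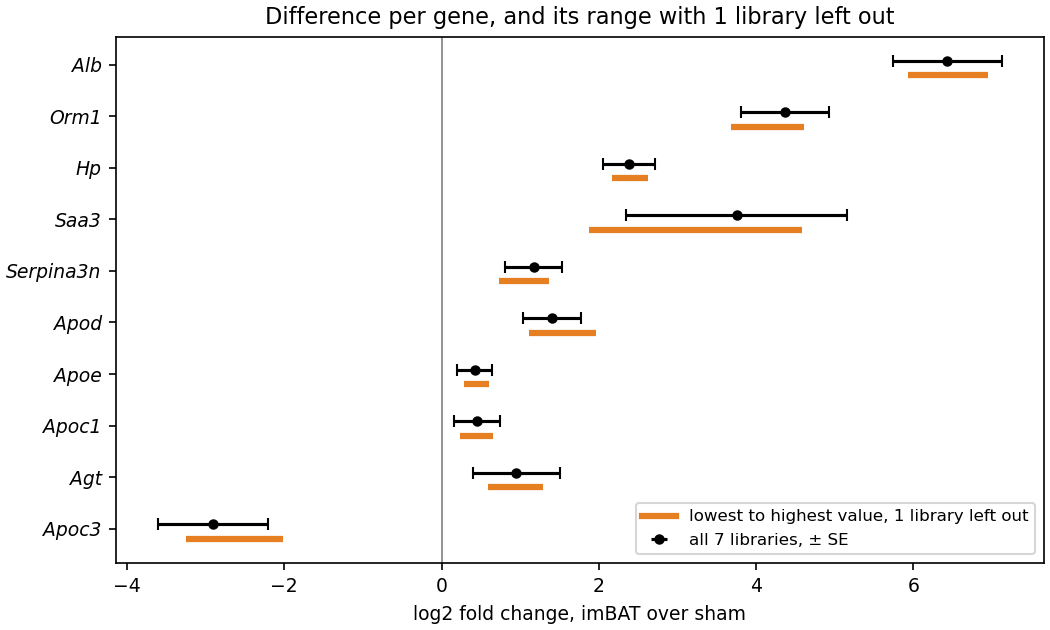
Fitted log2 fold change with its SE (imBAT over sham, edgeR) of the 10 genes, and the range of that value when each library is left out in turn. Alb (6.43) and Orm1 (4.37) are furthest above 0, Apoc3 (-2.90) is below 0, and Saa3 (1.87 to 4.58) has the widest range.

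Compared per kilobase of exon (RPKM, CPM divided by exon length), Apoe was the most abundant of the 10 transcripts in both groups, at 1562 ± 416 RPKM in imBAT (SD, n = 4) and 1166 ± 23.4 RPKM in sham (SD, n = 3). Hp came next, at 295 ± 108 RPKM in imBAT and 56.6 ± 17.2 RPKM in sham, followed by Serpina3n at 71.1 ± 35.4 RPKM in imBAT and 31.7 ± 7.21 RPKM in sham. In imBAT the order went on with Orm1 (67.6), Apod (31.8), Apoc1 (31.3), Agt (11.9), Alb (6.92), Saa3 (0.788) and Apoc3 (0.324 RPKM). From Serpina3n down, neighbours in this order overlapped. In sham it went on with Apoc1 (22.9), Apod (12), Agt (6.17), Orm1 (3.28), Apoc3 (2.4), Alb (0.0805) and Saa3 (0.0582 RPKM), with gaps between the ranges of Agt and Orm1 and of Apoc3 and Alb. Orm1 thus stood 4th in imBAT and 7th in sham, and Apoc3 10th in imBAT and 8th in sham. Apoe made up 77.9% to 86.3% of the summed CPM of the 10 genes in imBAT and 90% to 93% in sham.

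The imBAT libraries varied among themselves. Replicate 2 was the lowest for Hp, Saa3, Apoc3, Apoe, Apoc1, Apod and Agt and also had the lowest summed adipocyte markers (11586 CPM), while replicate 4 was the lowest for Alb, Orm1 and Serpina3n, and replicate 3 the highest for those 3 genes. Set against the summed adipocyte markers of the same library, which were 5.72-fold higher in imBAT, the genes separated. Alb was 14.1-fold, Orm1 3.09-fold and Saa3 1.43-fold higher in imBAT per unit of adipocyte marker CPM. The ratio of imBAT to sham on this measure was 0.894 for Hp, 0.502 for Apod, 0.367 for Serpina3n, 0.275 for Agt, 0.233 for Apoc1, 0.227 for Apoe and 0.021 for Apoc3. These ratios rest on markers chosen with the results known and are a description. Cfd was a large part of the marker sum, at 4003 to 12780 CPM in imBAT and 1162 to 2793 CPM in sham. It rose least of the 11 markers (log2 fold change 2.14, against a list median of 3.10). Ratios near 1, as for Hp and Saa3, therefore depend on the markers used, and the Saa3 value rests mostly on imBAT replicate 1.

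The gene whose log2 CPM was most like each of the 10 over the 7 libraries, among 19560 genes, was Col6a2 for Alb (Pearson r = 0.9998), En1 for Orm1 (0.9989), Gna12 for Hp (0.9966), 9130023H24Rik for Saa3 (0.9912) and Zfp949 for Apoc3 (0.9901). For Apoe it was Bpgm (0.9947), for Apoc1 Arl6ip4 (0.9788), for Apod Osbp2 (0.9920), for Agt Gm49133 (0.9819) and for Serpina3n Ankrd13c (0.9906). Each r is the highest of 19560 over only 7 libraries, so high values come partly from that selection. It also ignores the size of a change. The log2 fold change was -0.10 for Zfp949 (-2.90 for Apoc3), 0.17 for 9130023H24Rik (3.75 for Saa3) and 1.41 for En1 (4.37 for Orm1). Only Osbp2 (1.53) changed more than its gene, Apod (1.40). The libraries share the split between imBAT and sham, and r was above 0.95 for 1908 genes with Alb, 2089 with Orm1, 1897 with Hp and 191 with Apod, but for 82 with Serpina3n, 24 with Apoe, 16 with Saa3, 11 with Apoc3, 11 with Agt and 7 with Apoc1.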

How the data were processed

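The values are raw counts of reads per gene, deposited as 1 table for the inguinal fat RNA of 4 imBAT and 3 sham libraries. Per the labels' protocols, RNA came from a lipid-tissue kit, was sequenced on an Illumina NovaSeq and aligned with STAR 2.7.9a to Ensembl release 101. The submitters' processing notes also name Salmon 1.5.2, Subread with featureCounts 2.0.3, limma and edgeR, without their roles. The strand setting is not given in the sources used here, so overlapping and antisense genes may share reads. Of 55774 rows, 287 repeated a gene and were dropped. Coordinates and exon lengths came from GENCODE M21 (GRCm38), which held 55227 of the genes. Groups follow the treatment label; replicate numbers only name libraries. The labels do not say that libraries are separate mice, so p-values reflect only the spread among these libraries, which may be technical. No pair of libraries of a group agreed within sampling noise (chi-square per degree of freedom 20.4 to 216.1).

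Counts were fitted with edgeR 4.0.16 (R 4.3.3): robust quasi-likelihood F test, TMM scaling, default expression filter (minimum count 10), group as the only term and 5 residual degrees of freedom. An SE is the log2 fold change divided by the square root of F. The steps were tested on simulated data. Likeness used log2 of CPM plus 0.1, over genes with a mean of at least 1 CPM. The genes described and all lists were chosen with earlier results of these data known. Named by rule were the 10 genes, the 4 smallest p-values of each list, neighbours and paralogs, and up to 3 genes called against their list's majority. Chosen after their values were seen were Cd163, Lpl, Gzmb, Lcn2, Cp, C3, C4b, Tnf, Osm, Il6, Stat3, Cebpb, Cebpd, Cfd, Lep, Ace, Enpep, Anpep, Ren1, the receptors that fell, Mup3 and the Serpina1 genes. A list gene that is not reported here stayed in the fit and the counts. The alternatives tried were upper-quartile and RLE scaling, no filter, a filter of 1 CPM in 3 libraries, DESeq2 1.42.0, limma 3.58.1 voom with quality weights, the title number as a block, each library left out, and an adjusted p under 0.10.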

Additional observations from a re-analysis of the deposited data

Results flagged for a closer look

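Of 58 sets of imBAT values examined, 3 had 1 library far from the other 3, by the gap to the nearest library as a share of the whole range (Dixon's test); chance flags about 1 set in 20. Cebpa was highest in imBAT replicate 3, at 1078 CPM (gap 0.869 of the range). Hamp was highest in imBAT replicate 1, at 0.811 CPM (gap 0.870 of the range). The summed hepatocyte markers that missed the expression filter were highest in imBAT replicate 1, at 5 CPM (gap 0.922 of the range).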

How the results depend on the processing

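Over the 10 genes and all alternatives, 128 results kept their direction and side of the threshold, 10 lost a call, 11 gained one and 0 reversed; Alb, Orm1, Hp and Apoc3 kept their calls under every alternative. Without an expression filter 3 of the 10 genes were called higher, Apod and Serpina3n being lost; the cause was not tested. On leaving out each library the number called higher ranged from 3 (without sham replicate 3) to 9 (without imBAT replicate 2), and the number called lower was 1 throughout. Without that filter 7 of the 11 T cell markers were called lower and 1 hepatocyte marker higher, and without sham replicate 1, 4 Schwann cell markers were called higher. Serpina3n also lost its call under upper-quartile scaling. Saa3 was called higher under DESeq2 and at an adjusted p under 0.10, and Apoe under voom; Saa3 was not testable under the filter of 1 CPM in 3 libraries. Over all genes, 7519 (without sham replicate 2) to 11403 were called on leaving out each library, against 11491 with all. Genes of the surrounding lists called higher ranged from 40 to 55 and called lower from 21 to 26 on leaving out each library, against 48 and 25.

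The opening numbers of the titles are shared by 3 imBAT and sham pairs, whose deviations from the group means correlated at -0.01, 0.10 and 0.11. Pairs with different numbers gave -0.14 to 0.04, so 0.10 and 0.11 were the highest of all pairs. The values were small and the numbers were not taken as pairs, but this check does not exclude a pairing. With the title number as a replicate block, 7 of the 10 genes were called higher (Apoe, Apoc1 and Agt gained, Serpina3n lost) and 1 lower. The title number of imBAT replicate 2 is shared by no other library, so in this fit it adds nothing to the group difference. Low levels limit Saa3, Apoc3 and the sham values of Alb, which rest on few reads.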

Other observations

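Mup3, a major urinary protein gene of the lipocalin family, had no read in any sham library and averaged 1.16 ± 0.836 CPM in imBAT (SD, n = 4). That mean is 56.9-fold above a floor of 3 counts over the sham group (0.0205 CPM). The floor was set by choice, and the lowest imBAT library had 0.336 CPM, so the fold is a rough guide. The family has many near-identical copies, so reads could be split among them.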
